A study of Mus musculus with 12 samples.

Results

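Kinesins and cytoplasmic dynein, the motors that move cargo along microtubules, were examined in the ventral hippocampus (vHPC) of mice given chronic oral corticosterone (CORT), the glucocorticoid that rodents release under stress. Genes were chosen by name, as the kinesin heavy chains, kinesin light chains, kinesin-associated proteins and dynein subunits whose symbols begin with Kif, Kifc, Kifap, Klc or Dync. The rule took 49 of the 17564 genes in the authors' deposited tables. The genome annotation holds 59 genes or pseudogenes with such symbols, and the 10 others (Kif12, Kif14, Kif16bos, Kif18b, Kif22-ps, Kif28, Kif2b, Kif2c, Kif4-ps and Kifc5c-ps) had no row there. By textbook role the 49 genes were sorted into 23 genes of neuronal transport, 5 subunits of cytoplasmic dynein 1, 8 motors of the cilium, 10 mitotic motors and 3 other kinesins. The choice and the sorting were made with earlier results of these data known.

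All mice were male, on a C57BL/6 background. WT mice carried 2 wild-type copies of the gene for brain-derived neurotrophic factor, and BDNF het-Met mice carried 1 wild-type copy and 1 knock-in copy that codes for methionine in place of valine (Val66Met). From 2 months of age the CORT groups drank 25 mg/l CORT in 1% ethanol for 6 weeks, and the vehicle (VEH) groups drank 1% ethanol alone. The 4 groups, VEH and CORT within WT and within BDNF het-Met mice, had 3 libraries each, and every library held RNA pooled from 2 animals, so an individual mouse has no value of its own. The Val66Met change lies in the coding sequence, so the level of Bdnf does not check the genotype labels.

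Most kinesins walk toward the plus end of microtubules, which in axons points to the synapse, and carry vesicles, mitochondria and RNA granules outward. Cytoplasmic dynein 1, together with its activator dynactin, walks toward the minus end and returns endosomes and neurotrophin signals to the cell body. A separate set of kinesins works in cell division, where it separates spindle poles, aligns chromosomes and completes cytokinesis, and in adult brain these genes are active mainly in the few cells that still divide. Dynein 2 and several further kinesins build cilia or work inside them.

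The values are fitted ones. For every gene the authors' deposited tables give its mean expression over libraries in log2 CPM (read counts scaled to library size), and for each genotype the log2 ratio of VEH to CORT from limma-voom with its moderated t and p. Here the sign was turned, and a positive log2 fold change stands for more RNA under CORT. Fkbp5, which glucocorticoids induce, lay 0.21 higher in WT mice and 0.43 higher in BDNF het-Met mice on the log2 scale. Values of single libraries were not analysed here, so each error is the standard error (SE) of the model, not an SD over replicates. The tables list 7 residual degrees of freedom, whereas 12 libraries in 4 groups leave 8, and SEs in WT mice were a median of 1.12 times those in BDNF het-Met mice. A group of 2 libraries in place of 3 would give a ratio of 1.12, and whether the fit left a library out is not given in the sources used here. A gene is said below to have risen, fallen or passed when its uncorrected limma p was below 0.05, which is the same as a 95% interval that leaves out 0. No correction for the number of genes is part of that wording, and the adjusted p values given once below apply to all of it.

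Transport motors made up the upper end of the range of expression and mitotic motors the lower end. To compare genes, the mean expression was divided by exon length and given as log2 CPM per kb. The median of the transport class was 5.12 log2 CPM per kb, from -1.05 for the kinesin light chain Klc3 to 8.70 for Kif5a, the neuron-restricted heavy chain of kinesin-1. Next in order per kb stood Kif5c (7.42 log2 CPM per kb), a second neuronal kinesin-1 heavy chain, and Kif1a (7.41), the fast motor of synaptic vesicle precursors and dense core vesicles. Klc1, the neuronal kinesin-1 light chain, followed at 7.12 log2 CPM per kb. The ubiquitous heavy chain Kif5b stood lower, at 5.12 log2 CPM per kb. Subunits of cytoplasmic dynein 1 lay close together, between 4.01 for the intermediate chain Dync1i2 and 5.74 for the heavy chain Dync1h1. Mitotic motors ran from -3.79 for Kif23 to -0.90 for Kif22, with a median of -2.24 log2 CPM per kb, so no mitotic motor reached the level of any dynein 1 subunit. Cilium motors had a median of -0.34 log2 CPM per kb. No error of a level is given in the tables, so neighbours in this order cannot be told apart.

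**Figure D1:**
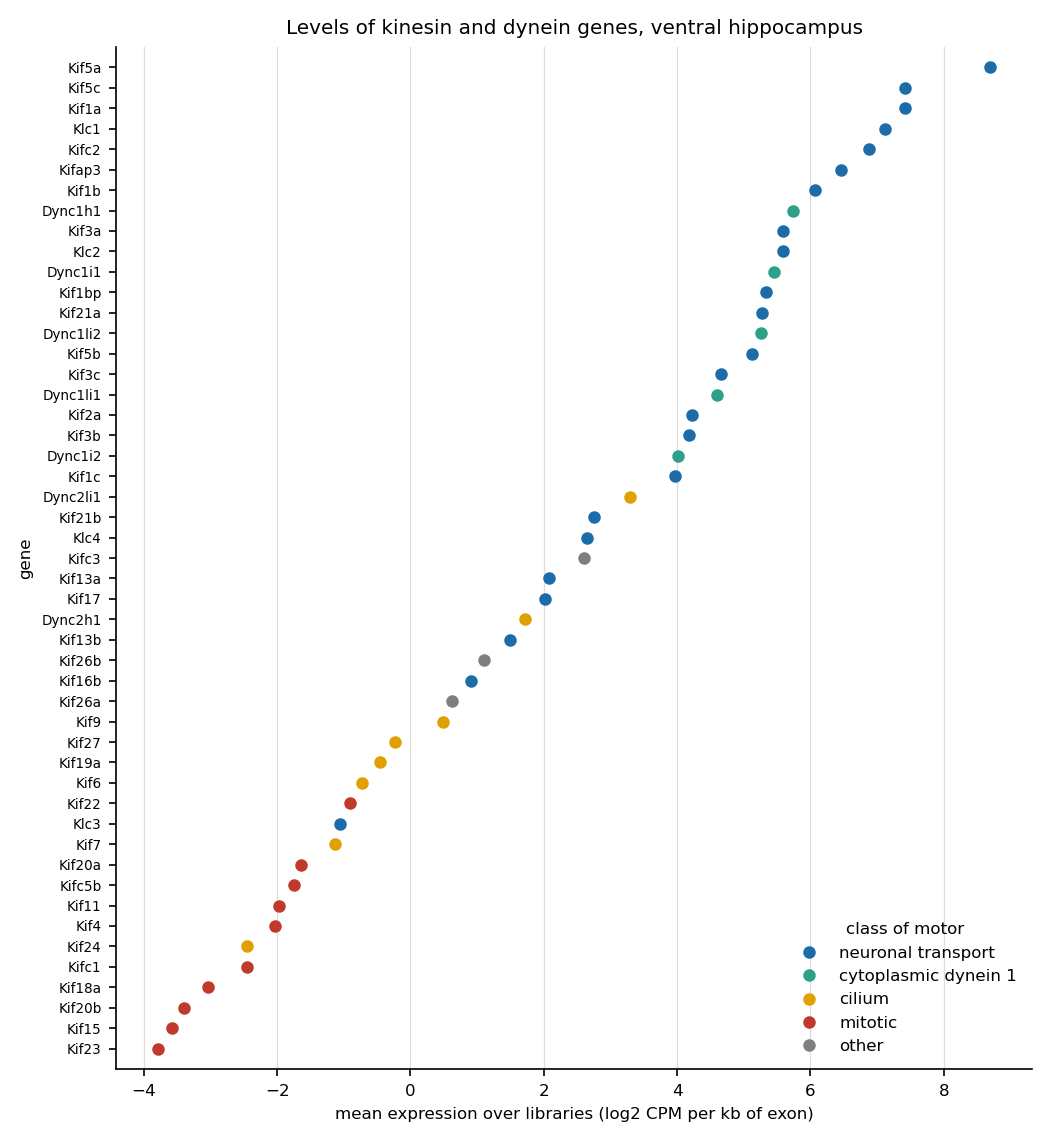
Mean expression over all libraries of the 49 kinesin and dynein genes, in log2 CPM per kb of exon (x axis), 1 gene per line (y axis) and coloured by class. Kif5a stands highest at 8.70, the 5 dynein 1 subunits lie between 4.01 and 5.74, and the 10 mitotic motors lie between -3.79 and -0.90.

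The first question was how CORT changed these genes in each genotype. The study called a gene differentially expressed at a fold change above 1.3 together with an uncorrected p below 0.05. By this rule 1 of 49 genes was called in WT mice (Kif23, lower), against 1.25% of all genes and 3.49% of those in the expression range of the mitotic motors. In BDNF het-Met mice the same rule called 3 of 49 (Kif11, Kif20b and Kif4, all lower), against 3.24% of all genes in either direction and 2.52% in the lower direction. All of these called genes were mitotic motors, and in their expression range 5.37% of genes were called lower in BDNF het-Met mice. With p alone, 3 genes passed in WT mice (Dync1h1 and Kif1a rose, Kif23 fell), against 3.83% of all genes. In BDNF het-Met mice 9 passed (Dync2h1, Kif21a and Kif2a rose; Kif11, Kif13b, Kif20b, Kif21b, Kif4 and Kifc3 fell), against 13.2% of all genes. Subtracting the median of all genes, which was only -0.0061 on the log2 scale, turned this split from 3 higher and 6 lower into 5 higher and 4 lower, with Kif11 and Kif21b out and Kif1bp and Kif3b in. With ordinary SEs the WT split of 2 higher and 1 lower became 1 higher and 2 lower, with Dync1h1 out and Dync1i2 in.

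After Benjamini-Hochberg adjustment over all genes, limma gave no call in either genotype, with 0% of all genes called in WT mice and likewise 0% in BDNF het-Met mice. The adjusted p of every one of the 49 genes was at least 0.999 in WT mice, and the lowest was 0.267 in BDNF het-Met mice (Dync2h1). Averaging the effects of both genotypes, which have no library in common, gave more precise values. In this average 14 of 49 genes passed at an uncorrected p below 0.05, against 13.3% of all genes. Of these, 6 rose (Dync1h1, Dync2h1, Kif1a, Kif1b, Kif21a and Kif3b), against 7.17% of all genes, and 8 fell (Kif11, Kif13b, Kif15, Kif18a, Kif19a, Kif20b, Kif23 and Kifc3), against 6.18%. None of the 49 was among the 13 genes (0.074%) with an adjusted p below 0.05 in the average, where their lowest adjusted p was 0.208 (Dync2h1). The fold change had the same direction in both genotypes for 33 of 49 genes (67.3%), beside 62.5% of all genes. In bulk tissue, fewer cells of a type and less RNA per cell cannot be told apart, for this and every result that follows.

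**Figure D2:**
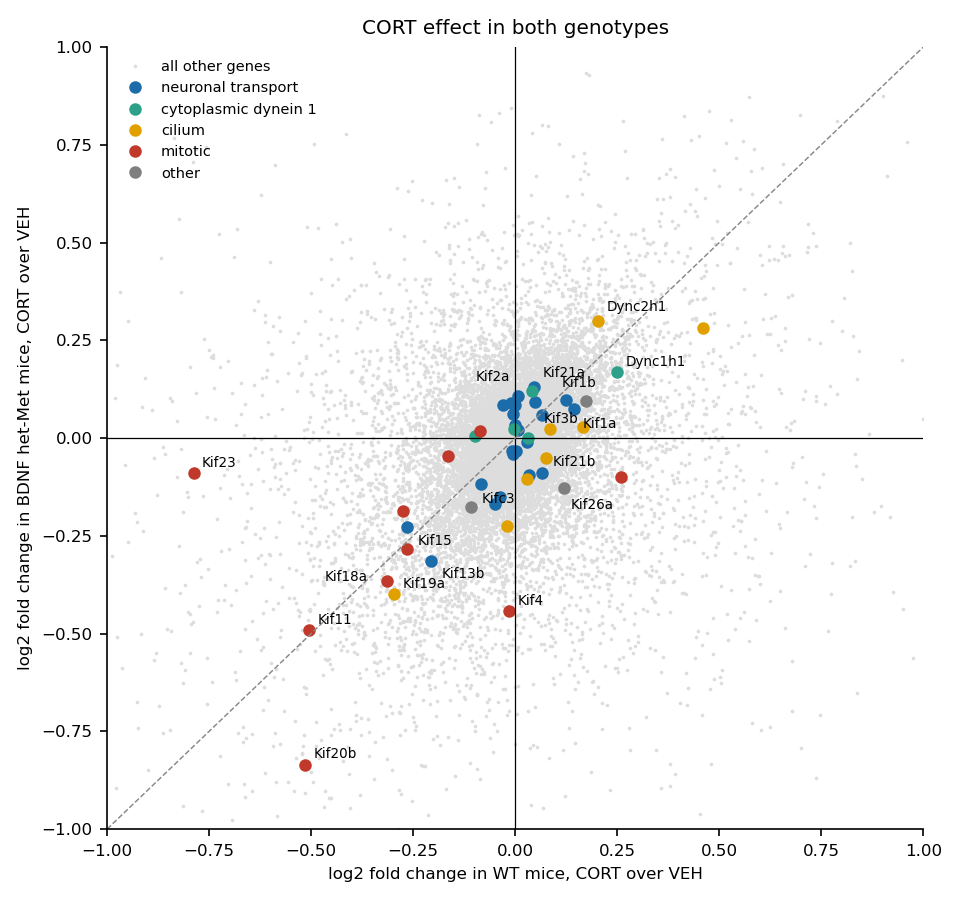
Log2 fold change of CORT over VEH in WT mice (x axis) and in BDNF het-Met mice (y axis) for the 49 genes, coloured by class, over the other genes in grey, with the line of equal effect dashed (121 genes beyond 1 log2 unit are not drawn, none of them a kinesin or dynein gene). Kif20b, Kif11, Kif18a and Kif15 lie low in both genotypes, Kif23 lies low in WT mice (-0.79) and near 0 in BDNF het-Met mice (-0.09), and most transport motors lie near the origin.

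Mitotic motors were the class with the lowest fold changes. In both genotypes 9 of 10 lay below 0, with a median log2 fold change of -0.27 in WT mice and of -0.24 in BDNF het-Met mice. The exceptions were Kifc5b in WT mice (0.26) and Kif22 in BDNF het-Met mice (0.02). Among the 3294 genes in the same range of mean expression, 54.2% lay below 0 in WT mice (median -0.03) and 59.3% did so in BDNF het-Met mice (median -0.06). In the average over genotypes 5 of the 10 mitotic motors fell and none rose, whereas 6.07% of the genes in that expression range fell.

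Kif20b, a motor of cytokinesis, had the lowest averaged value among the 49 genes and fell by 37.4%, a log2 fold change of -0.67 (SE 0.20, 95% interval -1.12 to -0.23). In BDNF het-Met mice the value was -0.84 (SE 0.28) and passed, and in WT mice it was -0.51 (SE 0.30) and did not. Kif20b was faint, with a mean expression of -0.60 log2 CPM, where the faintest of all genes stood at -2.42. Kif11, the kinesin-5 that pushes spindle poles apart, was nearly equal in both genotypes, at -0.50 in WT mice (SE 0.26) and -0.49 in BDNF het-Met mice (SE 0.22). Its averaged log2 fold change was -0.50 (95% interval -0.87 to -0.12), and the level fell by 29.2%. Kif11 passed in the average and, at the margin, in BDNF het-Met mice, where the call was lost with ordinary SEs, after centring on the median of all genes and after centring on genes of like expression.

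Kif23 is a subunit of centralspindlin, which organises the midzone of the spindle. It had the lowest mean expression of the 49 genes, -0.81 log2 CPM. In WT mice its log2 fold change was -0.79 (SE 0.28), a level that fell by 42.1%, whereas in BDNF het-Met mice it was -0.09 (SE 0.24) and did not pass. The difference between genotypes, 0.70 (SE 0.37), did not pass its own test. Kif4, a kinesin bound to chromosomes, had the opposite order, with -0.02 in WT mice (SE 0.22) and a fall by 0.44 in BDNF het-Met mice (SE 0.19). For Kif4 too the difference, -0.43 (SE 0.29), did not pass, and 15.1% of its exon length overlaps Pdzd11 on the opposite strand. The sources used here do not say how strand was used in counting, so for genes that overlap another on the opposite strand the reads may not be told apart.

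Kif18a, a kinesin-8 that aligns chromosomes, lay at -0.31 in WT mice (SE 0.19) and -0.36 in BDNF het-Met mice (SE 0.17) on the log2 scale, and of these comparisons passed only in the average (-0.34, 95% interval -0.62 to -0.06). Kif15, which keeps the spindle bipolar, had similar values, -0.26 in WT mice (SE 0.18) and -0.28 in BDNF het-Met mice (SE 0.17), and passed at the margin in the average (95% interval -0.55 to -0.0014), where centring on the median of all genes ended the call. Centring on genes of like expression ended the calls of Kif4 in BDNF het-Met mice and of Kif15 and Kif23 in the average. The remaining motors of the class did not pass in any comparison. Kif20a, of the central spindle, averaged -0.23 (SE 0.22), and 29.3% of its exon length overlaps Cdc23 on the opposite strand. The chromosome-bound Kif22 averaged -0.03 (SE 0.10). Kifc1, a minus-end motor of spindle poles, averaged -0.11 (SE 0.15) and its close relative Kifc5b 0.08 (SE 0.17). These relatives share a stretch of 1469 bases at 98.2% identity, so reads may be split between them and both values are uncertain.

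**Figure D3:**
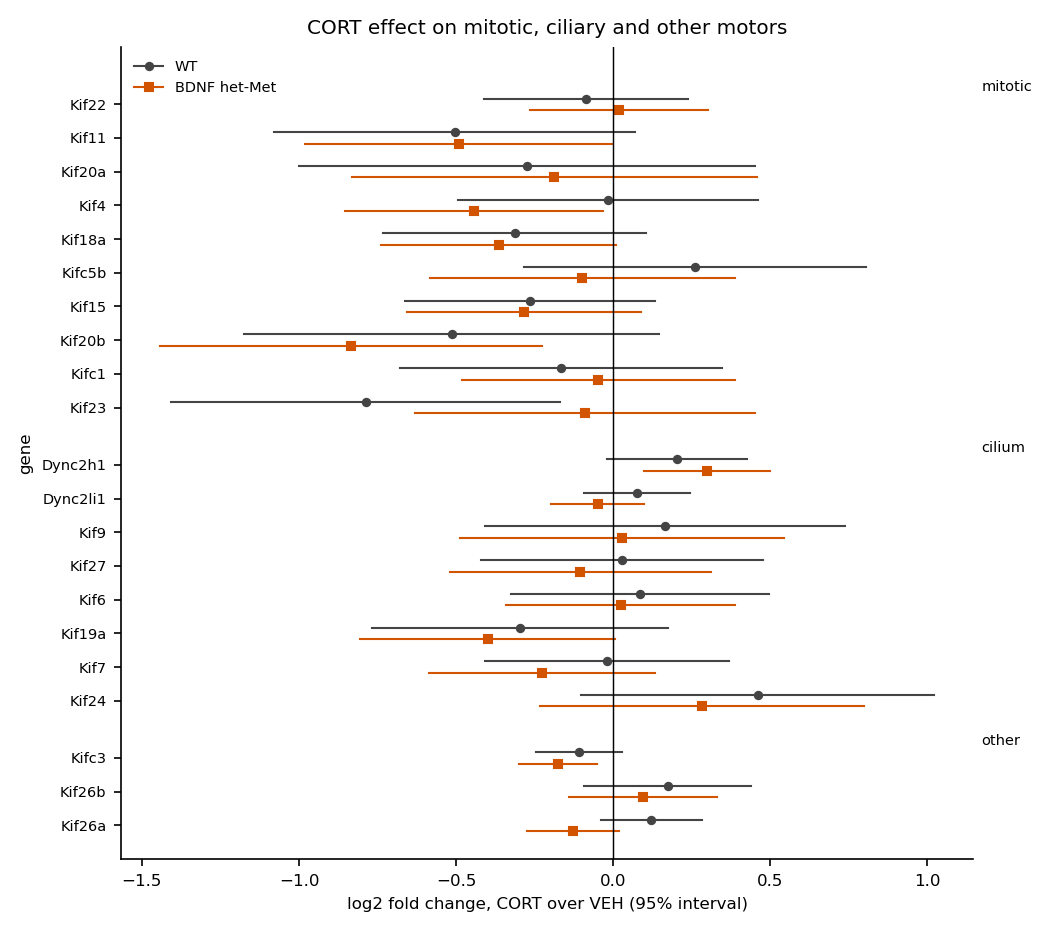
Log2 fold change of CORT over VEH with its 95% interval from the limma fit (x axis) for mitotic, ciliary and other motors (y axis), in WT mice (grey circles) and BDNF het-Met mice (orange squares). Of the 10 mitotic motors 9 lie left of 0 in each genotype, with intervals that mostly cross 0, while Dync2h1 and Kif24 lie right of 0 in both.

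Since several mitotic motors moved together, the 250 bases before their start sites were read from RefSeq on GRCm38.p6. Of the 49 genes 37 had such a window. Genes that peak in mitosis often carry a cell cycle homology region (CHR, searched as TTTGAA) and CCAAT boxes (searched as CCAAT) near the start, and both motifs were searched on both strands. Shown are the upstream windows of the 3 mitotic motors with the lowest averaged fold change, with the motif letters on either strand in capitals. Kif11 is read from chr19:37376132-37376381 (plus strand), Kif20b from chr19:34922108-34922357 (plus strand) and Kif23 from chr9:61946800-61947049 (minus strand).
Kif11: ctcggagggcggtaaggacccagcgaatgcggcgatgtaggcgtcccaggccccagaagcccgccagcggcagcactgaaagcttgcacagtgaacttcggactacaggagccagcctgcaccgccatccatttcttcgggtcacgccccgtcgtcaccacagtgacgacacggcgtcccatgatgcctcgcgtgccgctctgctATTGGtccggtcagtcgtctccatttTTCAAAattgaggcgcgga
Kif20b: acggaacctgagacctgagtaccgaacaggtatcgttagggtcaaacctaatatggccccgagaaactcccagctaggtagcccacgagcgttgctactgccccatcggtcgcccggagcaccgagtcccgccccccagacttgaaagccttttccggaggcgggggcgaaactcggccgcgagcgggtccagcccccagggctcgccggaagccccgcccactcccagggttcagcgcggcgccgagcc
Kif23: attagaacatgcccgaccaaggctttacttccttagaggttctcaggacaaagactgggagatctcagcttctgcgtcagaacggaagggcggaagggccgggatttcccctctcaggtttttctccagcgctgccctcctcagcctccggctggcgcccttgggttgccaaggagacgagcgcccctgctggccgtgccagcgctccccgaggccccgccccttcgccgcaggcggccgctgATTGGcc
In Kif11 the CHR match begins 19 bases and the CCAAT match 45 bases before the start, both on the reverse strand. Kif23 holds a CCAAT match 7 bases before the start and no CHR match, and Kif20b holds neither motif in this window. Among 9 mitotic motors with a window, 3 held the CHR letters (Kif11, Kif15 and Kif22; 33.3%), beside 16.0% of all 32851 RefSeq windows. The CCAAT letters were in 6 of 9 (66.7%), beside 33.8% of all windows, and both motifs in 2 of 9 (22.2%), beside 5.55%. Those with the CCAAT letters were Kif11, Kif22, Kif23, Kif4 and the close relatives Kifc1 and Kifc5b. Of the mitotic motors that fell in the average, Kif11 and Kif23 held these letters, and Kif15, Kif18a and Kif20b did not. Among 19 windows of transport genes 1 held the CHR letters (5.26%) and 7 the CCAAT letters (36.8%). These are matches of letters, not tested sites, and their relation to the fold changes was not tested. With both motifs, Kif11 averaged -0.50 and Kif22 -0.03, and with neither, Kif20b averaged -0.67.

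Other genes of dividing cells moved in the same direction. Of 20 such genes 17 were measured, and 16 of 17 lay below 0 in WT mice, with a median log2 fold change of -0.27. In BDNF het-Met mice 15 of 17 lay below 0, with a median of -0.30. Of all genes, 51.1% (WT) and 51.8% (BDNF het-Met) had a negative value, and of genes in the expression range of the mitotic motors 54.2% and 59.3%. In the average 5 of 17 fell and none rose, where 6.18% of all genes and 6.07% of those in that range fell. Cenpf, a kinetochore protein, averaged -0.56, Bub1b, a spindle checkpoint kinase, -0.63, Top2a, the topoisomerase of dividing cells, -0.93, and the proliferation marker Mki67 -0.48. Their mean expression was as low as that of the mitotic motors, between -1.45 and 2.50 log2 CPM over the list. Dcx, a marker of immature neurons, fell in the average by 0.15 on the log2 scale (SE 0.06) and is named here after its value was seen.

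Markers of other cells moved as well, which bears on a tissue sample that holds many cell types. All 8 microglia genes lay below 0 in both genotypes, with median log2 fold changes of -0.20 and -0.43. In the average 5 of 8 fell (P2ry12 by 0.44, Tmem119 by 0.35), where 6.18% of all genes did. The part of microglia in the lower values of the mitotic motors was not tested. Oligodendrocyte genes had medians of -0.09 (WT) and -0.35 (BDNF het-Met). Neuron genes lay slightly above 0, with medians of 0.04 and 0.07. In the average 4 of 10 rose (Nefm by 0.23, Nefh by 0.16, Nefl by 0.11 and Eno2 by 0.08), where 7.17% of all genes did. Another 3 of the 10, Rbfox3 (-0.04) among them, lay below 0 in the average. Astrocyte genes were mixed. In the average 2 of 7 rose (Gjb6 by 0.24 and Aldh1l1 by 0.22) and 3 fell, Aqp4 by 0.65 and Gfap by 0.45 among them. Aqp4 was 1 of the 13 genes with an adjusted p below 0.05 in the average. Neuron genes had the highest median level of these lists (7.21 log2 CPM per kb). No marker of these 4 lists was absent, and the level of a list in each group was not analysed here.

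The transport class as a whole was centred near 0. Its median log2 fold change was -0.00061 in WT mice, with 11 genes above and 12 below 0, and 0.02 in BDNF het-Met mice, with 12 above and 11 below. Over all genes the medians stood at -0.0026 and -0.0061. Both class medians changed sign under a centring, to 0.0020 in WT mice (median of all genes) and to -0.0028 in BDNF het-Met mice (genes of like expression). The median SE of the class was 0.05 in each genotype, and that of the mitotic motors was 0.24 in WT mice and as much as 0.21 in BDNF het-Met mice, so among transport genes far smaller changes could pass. In the average 4 of 23 rose and 1 fell, where 7.17% and 6.18% of all genes did. Of 14924 genes in the expression range of this class 1189 rose and 942 fell. Centring on genes of like expression ended the averaged calls of Kif1b, Kif21a and Kif3b, while those of Kif1a and Kif13b remained.

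Kinesin-1, the main motor of fast axonal transport, gave values close to 0 in both genotypes. Kif5a had a log2 fold change of -0.0065 in WT mice (SE 0.11) and -0.04 in BDNF het-Met mice (SE 0.10). For Kif5c the averaged 95% interval ran from -0.05 to 0.08, and for Klc1 from -0.09 to 0.06. Kif5b was less precise, with an averaged interval from -0.10 to 0.16. Klc2 averaged 0.01 and Klc4 -0.03. Klc3, the faintest gene of the class, averaged -0.25 with an SE of 0.25, and 28.1% of its exon length overlaps Ercc2 on the opposite strand.

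Kinesin-3 motors, which carry vesicles and endosomes, moved in both directions. Kif1a rose in WT mice by 0.14 on the log2 scale (SE 0.05), was 0.07 higher in BDNF het-Met mice (SE 0.04), where it did not pass, and rose by 7.85% in the average (adjusted p = 0.216). Kif1b, a motor of mitochondria and synaptic vesicle precursors, was 0.12 higher in WT mice (SE 0.06) and 0.10 higher in BDNF het-Met mice (SE 0.05), and passed in the average alone (0.11, 95% interval 0.03 to 0.20). Kif1b has the longest exons of the 49 genes, and its averaged value was 0.06 and did not pass when centred on genes of like exon length, nor did it pass when centred on genes of like expression (0.08). Kif13b went the other way. Its log2 fold change was -0.21 in WT mice (SE 0.12) and -0.32 in BDNF het-Met mice (SE 0.11), where it passed, and in the average it fell by 16.5% (adjusted p = 0.253). Its relative Kif13a, a motor of endosomes, averaged -0.11 (SE 0.06). Kif1c averaged -0.10 (SE 0.06) and Kif16b, of early endosomes, -0.02 (SE 0.05).

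Kinesin-2 changed little. Kif3a and Kif3b, the motor subunits of heterotrimeric kinesin-2, averaged 0.06 and 0.07 (each with an SE of 0.03), and Kif3b passed with an interval that began at 1.23e-05, next to 0. Kif3c averaged 0.04, and 35.3% of its exon length overlaps an antisense transcript. The cargo subunit Kifap3 averaged 0.03. Kif17, the kinesin-2 of dendrites, lay at 0.0069 in WT mice (SE 0.07) and 0.02 in BDNF het-Met mice (SE 0.06). The other transport genes each had their own pattern. Kif21a, a kinesin-4 that dampens microtubule growth, rose in BDNF het-Met mice by 0.13 (SE 0.04), was 0.05 higher in WT mice (SE 0.05) and rose by 6.27% in the average. Centring on genes of like expression ended the averaged calls of Kif21a and Kif3b and the call of Kif2a in BDNF het-Met mice. Kif2a, a depolymerase that trims axon branches, rose in BDNF het-Met mice by 0.11 (SE 0.04) with 0.0058 in WT mice, and 19.2% of its exon length overlaps Dimt1 on the opposite strand. Kifc2, a minus-end motor of neurons, lay at -0.04 in WT mice (SE 0.09) and -0.15 in BDNF het-Met mice (SE 0.08). The kinesin binding protein Kif1bp averaged 0.04 (SE 0.03).

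**Figure D4:**
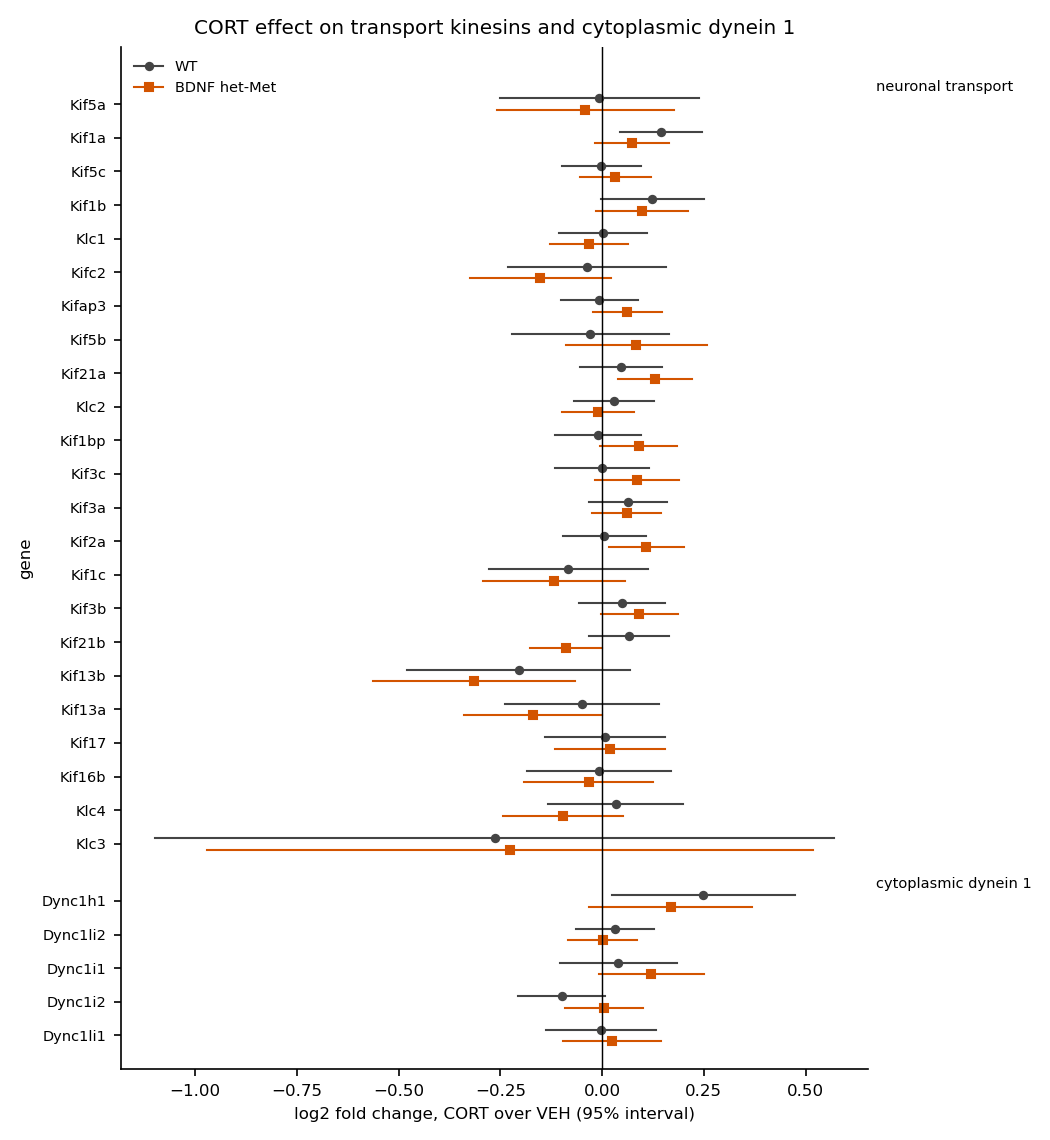
Log2 fold change of CORT over VEH with its 95% interval from the limma fit (x axis) for 23 transport genes and 5 dynein 1 subunits (y axis), in WT mice (grey circles) and BDNF het-Met mice (orange squares), ordered by mean expression within a class. Most intervals cross 0, and that of Klc3 is the widest (-1.10 to 0.57 in WT mice). Kif1a, Kif1b, Kif21a and Dync1h1 lie right of 0 and Kif13b left of 0 in both genotypes.

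In the authors' values cytoplasmic dynein 1 changed in its heavy chain, while no smaller subunit passed. Which subunits passed depended on the setting. Dync1h1 rose in WT mice by 0.25 (SE 0.10), was 0.17 higher in BDNF het-Met mice (SE 0.09), where it did not pass, and rose by 15.6% in the average (log2 fold change 0.21, adjusted p = 0.256). The call in WT mice was lost with ordinary SEs and when centred on genes of like exon length (0.21). In the average the neuronal intermediate chain Dync1i1 lay at 0.08 (SE 0.04), the ubiquitous Dync1i2 at -0.05 (SE 0.03), and the light intermediate chains Dync1li1 and Dync1li2 at 0.01 and 0.02. In WT mice Dync1i1 stood at 0.04 (SE 0.07) and Dync1i2 at -0.10 (SE 0.05), and in BDNF het-Met mice they stood at 0.12 (SE 0.06) and 0.0047 (SE 0.04). Dync1i2 did fall in WT mice with ordinary SEs and when centred on genes of like expression or of like exon length. It also fell in the average when centred on genes of like expression. Dync1i1 rose in BDNF het-Met mice and in the average when centred on genes of like exon length. Dynactin, which makes dynein processive, had all 12 listed subunits measured, and none passed in the average, with a median near 0 in both genotypes (0.02 in BDNF het-Met mice). Its only call was Dctn6 in BDNF het-Met mice (-0.12, SE 0.05), named after its value was seen. None of 8 dynein light chains passed in any of these comparisons. Of 12 dynein adaptors and regulators none passed in the average, and 2 rose in BDNF het-Met mice, where 6.55% of all genes did. These were Hook3 (0.14) and Bicd1 (0.12), also named after their values were seen.

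The kinesin cargo adaptors and the tracks completed the pathway. Of 18 cargo adaptors 2 rose in the average and none fell, Mapk8ip3 and Mapk8ip2, scaffolds that join kinesin-1 to cargo, each by 0.10 on the log2 scale, a count to read beside the 7.17% of all genes that rose. Of 18 tubulins and microtubule-associated proteins 4 rose in the average, where 7.17% of all genes did. All 4 were microtubule-associated proteins, and no tubulin passed there. Map1b rose by 0.27, Map1a by 0.21, and Map2 and Map7d2 by 0.10 each, while Dcx was the 1 gene of this list that fell in the average. In BDNF het-Met mice 4 of the list rose and 3 fell, where 6.55% and 6.64% of all genes did. The list had a median of 0.02 (WT) and 0.04 (BDNF het-Met). Values of the adaptors and tracks were not centred on genes of like expression or of like exon length.

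Cilium motors split by gene. Dync2h1, the heavy chain of the dynein that returns intraflagellar cargo, rose in BDNF het-Met mice by 0.30 (SE 0.09), was 0.20 higher in WT mice (SE 0.10), where it did not pass, and rose by 19.0% in the average. Its light intermediate chain Dync2li1 averaged 0.01 (SE 0.05). Kif19a, a depolymerase at the tips of motile cilia, fell in the average (-0.35, SE 0.14), with -0.30 in WT mice (SE 0.21) and -0.40 in BDNF het-Met mice (SE 0.18). This call was lost with ordinary SEs. Kif24, a centriolar depolymerase, had the highest averaged value among the 49 genes, 0.37, with a 95% interval from -0.01 to 0.75, and it shares stretches with many other genes. Kif6, Kif9 and Kif27, of motile cilia, averaged 0.05, 0.10 and -0.04, and Kif7, of Hedgehog signalling, -0.12, with SEs from 0.12 to 0.18.

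Ependymal and choroid plexus cells, which line the ventricles and may enter a dissection, were checked beside these values. In WT mice all 15 measured genes of ependymal motile cilia lay above 0, with a median log2 fold change of 0.27, and in BDNF het-Met mice 10 of 15 lay below 0, with a median of -0.03. None of the 15 passed in the average. The 10 choroid plexus genes had medians of -1.09 (WT, median SE 1.51) and 0.17 (BDNF het-Met, median SE 1.44), and none passed. Of the ependymal list 15 of 16 genes and of the choroid plexus list all 10 were measured in the tissue, and their part in the values of the cilium motors was not tested.

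Among the 3 other kinesins, Kifc3, a minus-end motor of cell junctions, fell in BDNF het-Met mice by 0.18 (SE 0.06), lay at -0.11 in WT mice (SE 0.06) and fell by 9.38% in the average (adjusted p = 0.220). Kif26b averaged 0.13 (SE 0.08). Kif26a, an atypical kinesin without ATPase activity, stood at 0.12 in WT mice (SE 0.07) and -0.13 in BDNF het-Met mice (SE 0.07), and neither value passed.

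The second question was whether the CORT effect differed between genotypes. At an uncorrected p below 0.05 the difference passed for 2 of 49 genes, against 2.41% of all genes. Kif21b, a kinesin-4 of dendrites and axons, had a log2 fold change of 0.07 in WT mice (SE 0.04) and -0.09 in BDNF het-Met mice (SE 0.04), where it passed. The value in BDNF het-Met mice less that in WT mice was -0.15 (SE 0.06). The call in BDNF het-Met mice was lost after centring on the median of all genes, while the difference still passed. For Kif26a the difference was -0.25 (SE 0.10). After adjustment over all genes 0% passed, and the lowest adjusted p of any gene was 1.00. Differences of the mitotic motors ran from -0.43 for Kif4 to 0.70 for Kif23, with SEs between 0.20 and 0.44.

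Exon length moved with the fold change. Over all genes the median averaged log2 fold change ran from -0.02 in the shortest decile of exon length to 0.05 in the longest, of at least 9454 bases. Of 2722 genes with at least 8000 exon bases 585 rose and 102 fell in the average. Dync1h1 (15658 bases), Dync2h1 (16348), Kif1b (17608) and Kif1a (9330), all of which rose in the average, are among the 13 members of that length. Of these 13, 6 lay above and 7 below 0 in the average, where 67.9% of the 2722 genes lay above 0. Kif13b (13017 bases) and the mitotic motors Kif15 (11020) and Kif18a (9832) fell. With each gene centred on genes of like exon length, the averaged effect of Dync2h1, Kif1a and Dync1h1 still passed, whereas Dync1h1 in WT mice (0.21) and Kif1b in the average (0.06) no longer did. This centring was chosen after the data were seen, and the part of exon length in these values was not otherwise tested.

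**Figure D5:**
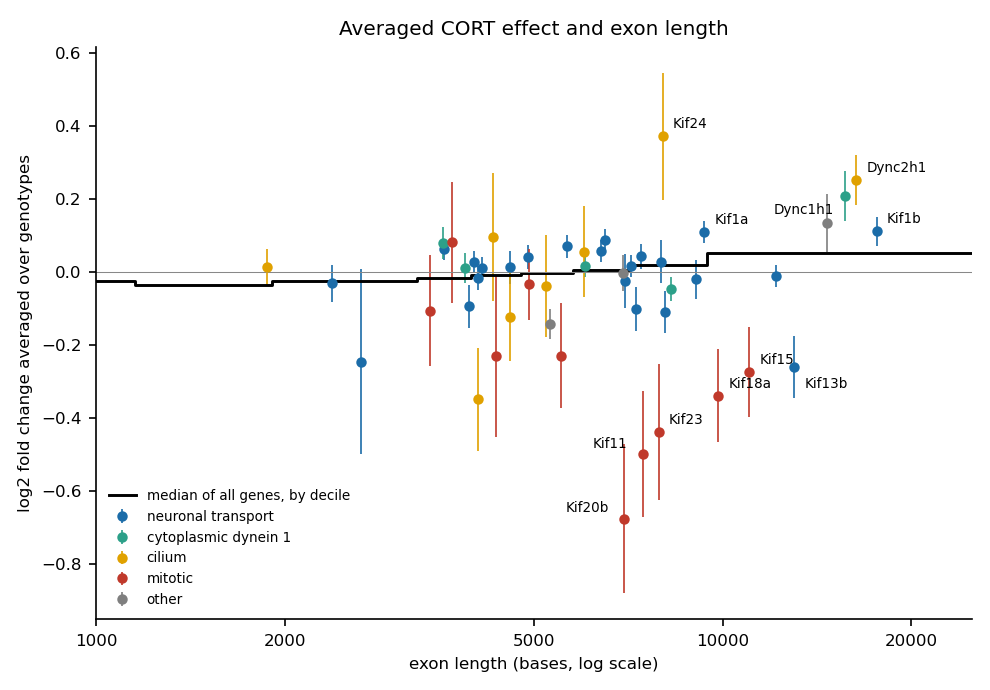
Log2 fold change of CORT over VEH averaged over genotypes with its SE (y axis) against exon length in bases on a log scale (x axis) for the 49 genes, coloured by class, with the median of all genes per decile of exon length as a black line. The line climbs from -0.02 to 0.05. Dync1h1, Dync2h1 and Kif1b lie above it at the right edge of the plot, and the mitotic motors Kif11, Kif15, Kif18a, Kif20b and Kif23 lie below it.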

How the data were processed

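RNA-seq of the vHPC of 12 libraries in 4 groups was analysed from 2 tables, 1 per genotype. Libraries were stranded and read from a single end for 75 bases, at a planned 35 to 40 M reads. Per the submitters' processing notes and the study's methods, the authors used STAR for alignment to GRCm38, featureCounts for counts per gene and limma-voom for the fit. Versions, the filter on low expression, how strand was used and how reads with several matching genes were treated are details not given in the sources used here. As units, the authors' deposited log2 values are mean expression (log2 CPM), the log2 fold change of VEH over CORT, and an ordinary SE of the latter. The deposited p-values are uncorrected, Benjamini-Hochberg adjusted and of a joint F test, and the deposited scores are the moderated t and F. These columns hold the authors' own comparisons, which are used because no others give the fold change per genotype. The number of reads counted per library is unknown.

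The SE printed is the log2 fold change over the moderated t, and listed p-values equalled the tail of that t at 10.91 total degrees of freedom. Averages and differences of both log2 fold changes were tested at the same degrees of freedom and adjusted over all genes. The step was tested on simulated data in which both fold changes were drawn independently, so that assumption itself was not tested. The p-values measure the spread between libraries that each pool 2 animals. Gene models came from GENCODE M21 on GRCm38 (7 of 17564 identifiers without a match), shared sequence of at least 75 bases at 98% identity from blastn 2.17.0, and upstream windows from RefSeq (GRCm38.p6). Tables were handled with pandas 2.3.3 and scipy 1.17.1 in Python 3.11.15, and figures drawn with matplotlib 3.10.9. Every gene of the family could be named. Full values were given for those with an uncorrected p below 0.05 in a comparison and for a fixed set of main motors, and up to 4 genes per further list were named by the smallest averaged p. The members, classes and lists were chosen with earlier results of these data known. Alternatives were ordinary SEs, centring on the median of all genes, on quintiles of expression or on deciles of exon length, other thresholds and a weighted class mean. Some items are not reported here.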

Additional observations from a re-analysis of the deposited data

Results flagged for a closer look

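The CORT effect on Kif21b differed between WT and BDNF het-Met mice by a test of the difference itself. The log2 fold change in BDNF het-Met mice less that in WT mice was -0.154 (SE 0.06), with an uncorrected p of 0.0252 from the SEs of limma. The effect on Kif26a differed in the same direction, by -0.248 (SE 0.10), with an uncorrected p of 0.0289. Both had an adjusted p of 1.00 over all genes, and 2.41% of all genes reach an uncorrected p below 0.05 in this comparison. The difference passed for both genes with ordinary SEs and after each of the 3 centrings as well.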

How the results depend on the processing

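No paired analysis was possible because the values are fitted ones and hold no value per library, so neither a replicate block nor leaving out a replicate could be run. Without a minimum on the fold change, 3 members were called in WT mice in place of 1 and 9 were called in BDNF het-Met mice in place of 3, and with p below 0.01 beside the fold change minimum 0 were called in each. The mean weighted by the inverse squared SE moved the 3 other kinesins from a median of 0.12 to 0.013 in WT mice and from -0.0035 to -0.055 in the average. No value of a named gene that passed changed direction. Class medians near 0 did: transport from -0.00061 to 0.0020 in WT mice (centred on all genes) and from 0.02 to -0.0028 in BDNF het-Met mice (quintiles), and in the latter dynein 1 from 0.02 to -0.01 (quintiles) and cilium from -0.01 to 0.02 (weighted mean), while the 3 other kinesins went from -0.0035 to 0.00086 in the average (centred on all genes). Of 28 values of named genes that passed, 25 still passed with ordinary SEs, 25 after centring on the median of all genes, 20 on quintiles of expression and 26 on deciles of exon length, the last chosen after the data were seen. Centring on quintiles of expression ended the calls of Kif2a, Kif4 and Kif11 in BDNF het-Met mice and of Kif1b, Kif21a, Kif3b, Kif15 and Kif23 in the average. Counts of members at p below 0.05 ranged from 3 to 4 in WT mice, 8 to 13 in BDNF het-Met mice and 11 to 16 in the average. The causes were not tested.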

Other observations

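A contrast between genotypes apart from CORT has no column of its own. The joint F covers 3 contrasts, and taking the squared moderated t of WT and of BDNF het-Met mice from 3 times F gives what is left for it, a remainder without sign or p. Over all genes it had a median of 0.433, a 95th percentile of 4.09 and a 99th percentile of 8.04. Among the motors Kif21b had the highest remainder (99.5th percentile of all genes), followed by Kif17 with 6.56, Kif15 with 5.29 and Kifc3 with 4.52. All other kinesin and dynein genes lay below the 95th percentile. Kif18a lies 0.333 Mb from Bdnf on chromosome 2 and its remainder was 0.665. The 4 other motors on chromosome 2 (Kif5c, Kif16b, Dync1i2 and Kif3b) lie at least 32.9 Mb from Bdnf and had remainders of 3.01, 0.246, 0.0075 and 0.014.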
